A study of Mus musculus with 6 samples.

Results

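The 8 genes described here, Rab5if, Pik3ap1, Rnf149, Isoc1, Pdxk, Ip6k2, Ston1 and Tmod4, were picked by name from 54532 genes counted in mouse liver because they differed strongly between HFD and HFD+allantoin livers with little spread between mice, and because little is commonly said of them in liver. That contrast chose them, so their own differences are given below as a description, with no test. All 8 were among the 12795 genes that passed the filter on low counts and were tested. The name of the group holds for most of them only. Rab5if, Pik3ap1, Isoc1, Pdxk and Ip6k2 had a smaller spread between mice than most genes of the same level, whereas Rnf149 and Ston1 had a larger one, and the level of Tmod4 in HFD+allantoin livers rested on 2 reads.

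The 6 libraries came from the livers of 6 wild-type male C57BL/6J mice, 1 library per mouse. All were 8 weeks old at entry and ate a high-fat diet (HFD) for 4 weeks and then for another 4 weeks, so every mouse carried the diet. The HFD group (replicates 1 to 3) had no supplement, and the HFD+allantoin group (replicates 4 to 6) drank allantoin, an oxidation product of uric acid, during the second period. The labels list the doses 0.06 and 0.3 mg/mL and assign none to a library, and the study ties 0.3 mg/mL to the sequenced mice, its Allantoin-H group. Chow-fed and lower-dose mice were not analysed here, so neither a diet effect nor a dose response is covered, and a batch cannot be told apart from the group because none is given. In bulk liver, a lower level can come from fewer cells of a type or from less RNA per cell, and these cannot be told apart.

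Libraries held 11326372 to 14601457 counts. Of the 12795 tested genes, 24.3% were called at an adjusted p under 0.05 by edgeR's quasi-likelihood test with Benjamini-Hochberg adjustment, 11.3% (1446 genes) higher and 13.0% (1666 genes) lower with allantoin, and 44.3% had groups that did not overlap. Scaled by library size only, the split was 3162 higher and 674 lower. Without HFD+allantoin replicate 4, 5 or 6 the counts were 596 and 700, 460 and 564, and 702 and 832. Transcripts of the mitochondrial chromosome took 17.9% to 36.5% of the counts in HFD and 6.92% to 11.4% in HFD+allantoin livers. With that chromosome left out, the fold change of each of the 8 genes moved by less than 1 SD between replicates. HFD replicate 2 stood apart by its adipose transcripts, with 2593 counts of Fabp4, a fatty-acid-binding protein of adipocytes, against 34 to 146 in the other libraries. Without it the 8 log2 fold changes lay between −5.61 (Tmod4) and 3.31 (Ston1), each within 1 SD of its value over all libraries.

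As background, the 8 genes serve unrelated steps of cell biology. Pik3ap1 (BCAP) is a cytoplasmic adaptor that recruits phosphoinositide 3-kinase to receptors of B cells and macrophages, and Ip6k2 phosphorylates inositol hexakisphosphate to an inositol pyrophosphate. Pdxk, pyridoxal kinase, makes the active cofactor form of vitamin B6, on which transaminases of the liver depend, and Isoc1 carries an isochorismatase domain whose substrate in mammals is not established. Rab5if is a small protein of the endoplasmic reticulum that pairs with Tmco1 in the machinery that inserts proteins with several membrane spans, and Rnf149 is a membrane-bound ubiquitin ligase with a protease-associated domain and a RING finger. Ston1, stonin 1, belongs to endocytic adaptors related to the AP-2 complex of clathrin coats, and Tmod4 caps actin filaments and is known from skeletal muscle.

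The sequence before the start site is shown for 4 of the genes, because they span the range from the most to among the least CpG-rich start regions of the group and cover a riser from a low level (Rab5if), both genes with an E-box (Pik3ap1, Pdxk) and the gene that was nearly silent with allantoin (Tmod4). Start regions from RefSeq (GRCm38.p6), 300 bases from 250 before to 50 after the start, were read for 7 of the 8 genes. No start region of Isoc1 was analysed here. Each sequence runs 5′ to 3′ in the direction of transcription, from base 250 to base 41 before the start, and stops short of the annotated exons of its own gene. The Rab5if stretch reaches into 5430405H02Rik, a non-coding gene on the opposite strand. Capitals mark the 3 motifs found here, read on either strand. The E-box is CACGTG. The box named CCAAT reads ATTGG on the opposite strand. The third motif, the GC box, has the letters GGGCGG.
Rab5if, chr2:156862872-156863081, plus strand: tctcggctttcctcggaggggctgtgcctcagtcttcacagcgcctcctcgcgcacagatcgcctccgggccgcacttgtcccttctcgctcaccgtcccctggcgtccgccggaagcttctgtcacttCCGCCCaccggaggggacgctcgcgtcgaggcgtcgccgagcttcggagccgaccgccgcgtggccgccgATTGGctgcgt
Pik3ap1, chr19:41385143-41385352, minus strand: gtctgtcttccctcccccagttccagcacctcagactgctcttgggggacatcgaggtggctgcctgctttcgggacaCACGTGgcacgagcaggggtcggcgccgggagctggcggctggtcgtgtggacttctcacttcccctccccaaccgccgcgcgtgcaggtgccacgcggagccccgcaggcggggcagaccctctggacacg
Pdxk, chr10:78464989-78465198, minus strand: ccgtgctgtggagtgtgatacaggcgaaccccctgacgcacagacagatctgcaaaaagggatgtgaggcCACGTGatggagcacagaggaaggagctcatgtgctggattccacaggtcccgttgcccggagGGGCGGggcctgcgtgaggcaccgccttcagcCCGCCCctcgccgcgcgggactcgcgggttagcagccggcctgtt
Tmod4, chr3:95124264-95124473, plus strand: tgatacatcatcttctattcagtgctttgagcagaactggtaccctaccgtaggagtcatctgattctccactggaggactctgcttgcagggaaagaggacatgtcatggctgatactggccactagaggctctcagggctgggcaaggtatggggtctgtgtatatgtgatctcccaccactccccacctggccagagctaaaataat

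The start regions ranged widely in CpG content, and none of the 6 motifs searched was in all of them. Rab5if held 41 CpG dinucleotides in its 300 bases, more than 96.5% of 32851 mouse start regions, and Rnf149 held 33, Pdxk 28 and Pik3ap1 26, against a median of 7. Ip6k2 has 2 listed starts, with 24 and 6. Tmod4 held 5 and Ston1 held 2. The E-box, which 7.15% of all start regions hold, lay 172 bases before the start of Pik3ap1 and 180 before that of Pdxk. A GC box, found in 35.7% of start regions, was in all but Pik3ap1 and Tmod4, and a CCAAT box, found in 37.4%, was in Rab5if, Ston1 and the first start of Ip6k2. Of 3 further motifs searched on both strands, the nuclear receptor half-site AGGTCA (16.3% of start regions) was in Pdxk alone, 39 bases before its start, and neither TATAAA (13.6%) nor TTATGTAA (0.938%) was in any of the 7 genes. Tmod4 thus held none of the 6 motifs in this window. The listed start of Ston1 lies inside the span that GENCODE M21 gives the gene, so its window describes that start only. A match is a run of letters, not a shown binding site.

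**Figure D1:**
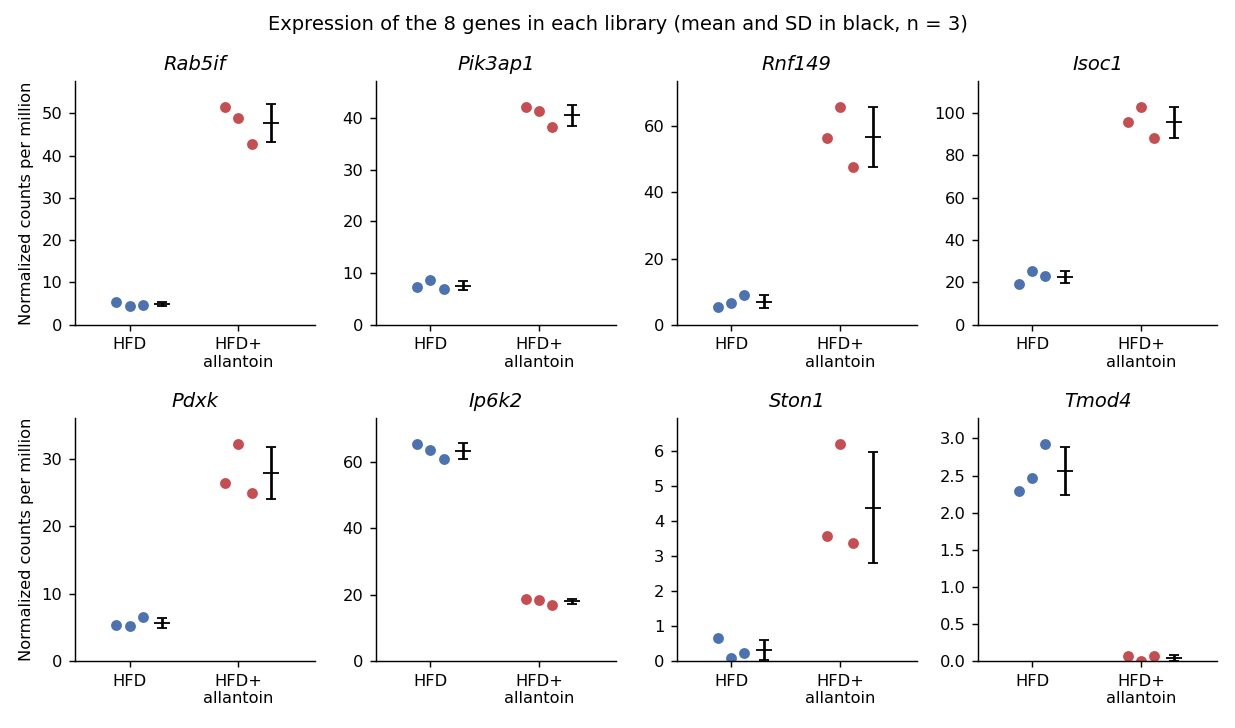
Normalized expression (CPM, linear axis from 0, a separate scale for each gene) of the 8 genes in 3 HFD livers (blue) and 3 HFD+allantoin livers (red), with the mean and SD in black. The 2 groups do not overlap for any of the 8, nor for 44.3% of all tested genes. The 8 were chosen for a large difference with little spread. Ip6k2 and Tmod4 are the 2 that were lower with allantoin.

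Pik3ap1 (ENSMUSG00000025017, chr19:41272377-41385102, minus strand) measured 7.31, 8.59 and 6.86 CPM in the HFD livers and 42.2, 41.3 and 38.3 CPM in the HFD+allantoin livers. CPM are counts brought to a common library size with TMM factors, which offset the unequal share of a few abundant genes. The lowest treated library was 4.45 times the highest HFD library, and the 3 treated libraries were close to each other. The mean was 7.59 ± 0.900 CPM in HFD and 40.6 ± 2.05 CPM in HFD+allantoin livers (SD, n = 3), a log2 fold change of 2.42 (SE 0.17), or 5.35-fold. No tested gene had both a larger fold change and a smaller spread than Pik3ap1, the spread being the SD of log2 CPM within groups, here 0.127. This count was also 0 for Rab5if, Ip6k2 and Tmod4, but 3 for Isoc1, 4 for Pdxk, 5 for Rnf149 and 10 for Ston1. It describes how the 8 were picked, since size and spread chose them.

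Ip6k2 (ENSMUSG00000032599, chr9:108783796-108806337, plus strand) was the more abundant of the 2 genes that were lower with allantoin. It measured 65.4, 63.4 and 60.8 CPM in the HFD livers and 18.7, 18.3 and 17.1 CPM in the HFD+allantoin livers. Both groups were narrow, with means of 63.2 ± 2.31 and 18.0 ± 0.850 CPM (SD, n = 3). The log2 fold change was −1.81 (SE 0.15), or 3.50-fold lower. Its spread, 0.0610 in log2 CPM, was the smallest of the 8 genes, and 0.649% of all tested genes had a smaller one. With libraries scaled by size only the log2 fold change was −1.39, and with a correction for length and GC content of the transcripts it was −1.88.

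Pdxk (ENSMUSG00000032788, chr10:78436744-78464975, minus strand) measured 5.35, 5.23 and 6.60 CPM in the HFD livers and 26.5, 32.2 and 24.9 CPM in the HFD+allantoin livers. The means were 5.73 ± 0.760 and 27.9 ± 3.86 CPM (SD, n = 3). The log2 fold change was 2.28 (SE 0.20), or 4.85-fold. HFD+allantoin replicate 5 was the highest library. Isoc1 (ENSMUSG00000024601, chromosome 18, 58659466 to 58680368, plus strand) began from a higher level, with 19.4, 25.2 and 23.2 CPM in the HFD livers, and reached 95.8, 103 and 88.3 CPM in the HFD+allantoin livers. Its means were 22.6 ± 2.92 and 95.6 ± 7.27 CPM (SD, n = 3). The log2 fold change was 2.08 (SE 0.17), or 4.23-fold, the smallest difference among the 6 risers.

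Rab5if (ENSMUSG00000027637, chr2:156863128-156873563, plus strand) measured 5.35, 4.44 and 4.68 CPM in the HFD livers and 51.5, 48.8 and 42.9 CPM in the HFD+allantoin livers. These are 45 to 56 reads per HFD library against 635 to 825 per treated library. The lowest treated library was 8.01 times the highest HFD library, the widest gap of the 5 risers with at least 45 reads in every library. The means were 4.83 ± 0.469 and 47.7 ± 4.41 CPM (SD, n = 3). The log2 fold change was 3.31 (SE 0.18), or 9.88-fold, which ranked 54 by size among all tested genes. None of the genes ranked above it had a smaller spread.

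Rnf149 (ENSMUSG00000048234, chr1:39551296-39577405, minus strand) measured 5.46, 6.42 and 9.11 CPM in the HFD livers and 56.5, 65.7 and 47.8 CPM in the HFD+allantoin livers. The means were 6.997 ± 1.89 and 56.7 ± 8.97 CPM (SD, n = 3). The log2 fold change was 3.01 (SE 0.24), or 8.05-fold. HFD replicate 3 was the highest of its group and still far below every treated library. The spread was not small: at 0.308 in log2 CPM, 70.0% of the 500 genes nearest in mean level had a smaller one.

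Ston1 and Tmod4 were close to the limit of these libraries, where the number of reads sets the precision. Ston1 (ENSMUSG00000033855, chr17:88597684-88662586, plus strand) had 6, 1 and 3 reads in the HFD livers and 49, 105 and 50 in the HFD+allantoin livers, or 0.655, 0.0988 and 0.251 against 3.59, 6.21 and 3.37 CPM. Treated replicate 5 stood above the others. The summed reads, 10 against 204, gave a ratio of 14.1 after scaling, with an exact 95% interval of 7.49 to 29.8 that covers counting error only. Without HFD replicate 1, which held 6 of the 10 reads, the fitted log2 fold change was 4.54 instead of 3.72 (SE 0.60).

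Tmod4 (ENSMUSG00000005628, chr3:95124476-95129209, plus strand) went the other way, with 21, 25 and 35 reads in the HFD livers and 1, 0 and 1 in the HFD+allantoin livers. In CPM these are 2.29, 2.47 and 2.93 against 0.0733, 0 and 0.0675. The ratio of the summed reads, 81 against 2, was 58.8-fold lower with allantoin, with an exact 95% interval of 15.8 to 494 for counting error only. The fitted log2 fold change was −5.57, a value that rests on 2 reads with allantoin and ranged from −5.94 to −4.99 over the alternatives. With 10 or more reads required in every library, neither Tmod4 nor Ston1 was tested.

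**Figure D2:**
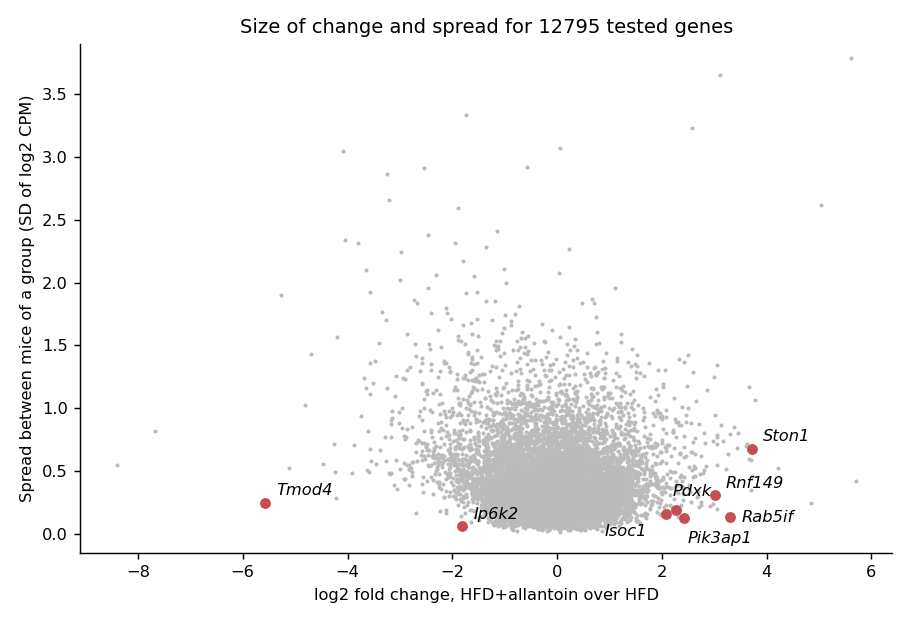
Each grey point is 1 of 12795 tested genes, placed by its log2 fold change (HFD+allantoin over HFD, horizontal axis) and by the SD of log2 CPM within groups (vertical axis), with the 8 genes in red. Rab5if, Pik3ap1, Isoc1, Pdxk and Ip6k2 lie at the lower edge, with SDs from 0.0610 to 0.187. Ston1 lies higher, at 0.679, and Tmod4 stands at a fitted value that rests on 2 reads with allantoin.

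Beside the 500 genes nearest in mean level, the share with a smaller spread was 1.60% for Ip6k2, 9.40% for Rab5if, 11.2% for Pik3ap1, 22.0% for Pdxk, 25.4% for Isoc1, 59.4% for Ston1 and 70.0% for Rnf149. For Tmod4 it was 1.44% of 348 genes, since fewer genes lie below it, and there the added prior count compresses the log values. These shares describe how the genes were picked and support nothing further. Part of the spread is counting alone, as the plot of coefficients of variation shows. In HFD livers Rab5if varied by 9.73% between mice where its 45 to 56 reads alone would give 14.1%, a spread within counting error at this depth. Pik3ap1 (11.9% against 11.3%), Pdxk (13.3% against 12.9%) and Ip6k2 (3.66% against 3.90%) were likewise near their counting error in HFD livers. Rnf149, at 27.1% against 11.6%, and Isoc1, at 12.9% against 6.50%, varied beyond it. In HFD+allantoin livers, where reads were many, Rab5if (9.23% against 3.73%), Rnf149 (15.8% against 3.40%), Isoc1 (7.598% against 2.63%) Pdxk (13.9% against 4.85%) and Ston1 (35.9% against 12.1%) varied between mice beyond counting, and Pik3ap1 (5.05% against 4.04%) was near it. In HFD livers the value of Ston1 was 85.9% against 54.8%. It rests on 6, 1 and 3 reads, too few to tell a spread between mice from counting.

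**Figure D3:**
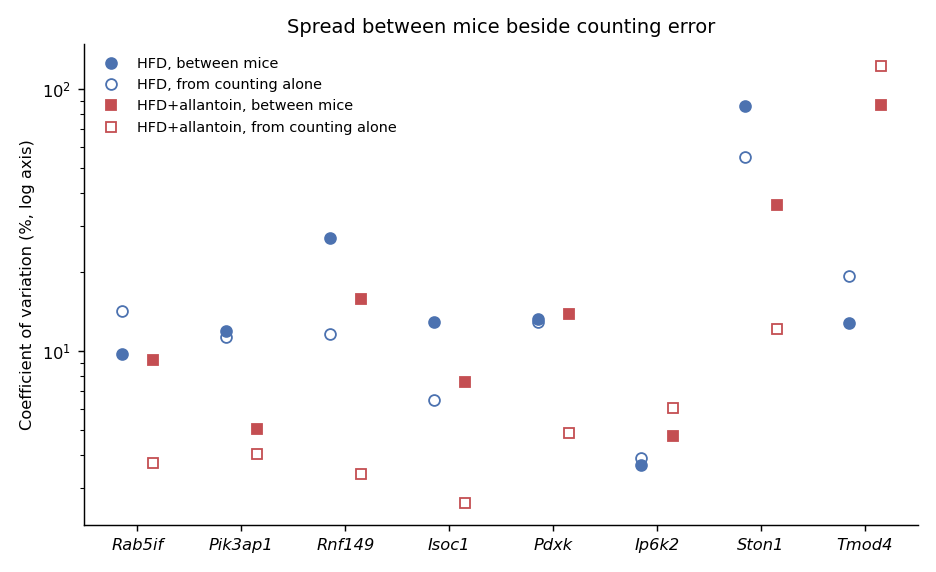
Coefficient of variation in percent (log axis) of the 8 genes between the 3 mice of a group (filled) and as the number of reads alone would give (open), for HFD (blue circles) and HFD+allantoin (red squares). In HFD livers the filled and open points of Pik3ap1, Pdxk and Ip6k2 nearly coincide, and in HFD+allantoin livers the filled points lie above the open ones for Rab5if, Pik3ap1, Rnf149, Isoc1, Pdxk and Ston1, and below them for Ip6k2 and Tmod4.

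Levels can be compared between genes only per length, here as CPM per kb of annotated exons. In HFD livers the order was Ip6k2 (15.5), Isoc1 (6.69), Rnf149 (2.47), Rab5if (1.68), Tmod4 (1.49), Pik3ap1 (1.36), Pdxk (1.06) and Ston1 (0.0741 CPM per kb). The neighbours Rab5if and Tmod4, and Tmod4 and Pik3ap1, overlapped between libraries, and every other gene was above the next in every library. In HFD+allantoin livers the order was Isoc1 (28.3), Rnf149 (19.97), Rab5if (16.6), Pik3ap1 (7.28), Pdxk (5.16), Ip6k2 (4.43), Ston1 (0.972) and Tmod4 (0.0273 CPM per kb), where Rnf149 and Rab5if overlapped. Ip6k2, the highest of the group on HFD, was thus among the lower ones with allantoin. Against all tested genes, the level of Rab5if per length moved from above 37.3% of them to above 85.3%, that of Rnf149 from 46.5% to 87.1%, and that of Ip6k2 from 83.9% to 61.8%.

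The genes around and over the 8 loci were examined next, because reads of an overlapping gene can be counted for its partner. GENCODE M21 lists 43 genes that overlap one of the 8, lie within 20 kb or are the nearest protein-coding gene on either side. Of these, 41 were in the count table, 14 had no read in any library and 15 were tested. A set of 5 was called, 33.3% of those tested beside 24.3% of all genes, 2 higher and 3 lower, and 4 of the 5 moved in the direction of their neighbour among the 8. Groups did not overlap for 6 of the 15 (40.0%, beside 44.3% of all genes).

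Next to Pik3ap1, both flanking genes rose. Tm9sf3, a membrane protein of the Golgi, lies 8.38 kb beyond its 3′ end on the same strand and measured 72.8, 81.6 and 97.1 CPM in HFD and 154, 171 and 166 CPM in HFD+allantoin livers (log2 fold change 0.96, SE 0.17, edgeR adjusted p = 0.0060). Lcor, a nuclear receptor corepressor, starts 97.5 kb upstream on the opposite strand and went from 0.655, 1.09 and 1.003 CPM to 3.67, 5.56 and 5.47 CPM (log2 fold change 2.40, SE 0.38, edgeR adjusted p = 0.0048). Next to Tmod4, the genes on both sides fell. Vps72, a histone chaperone subunit of chromatin remodellers, ends 1.43 kb upstream and went from 29.6, 20.4 and 17.0 CPM to 10.1, 8.93 and 10.5 CPM (log2 fold change −1.18, SE 0.23, edgeR adjusted p = 0.0092). Scnm1, a splicing factor, ends 0.327 kb beyond Tmod4 on the opposite strand and went from 20.4, 12.6 and 9.87 CPM to 6.38, 5.80 and 6.21 CPM (log2 fold change −1.22, SE 0.28, edgeR adjusted p = 0.016). The next genes there, Lysmd1, Tnfaip8l2 and Pip5k1a, were not called, with log2 fold changes of −0.12, 0.16 and −0.12. The calls of Tm9sf3 and Lcor held without any single library, whereas Scnm1 was not called without HFD+allantoin replicate 4, 5 or 6, nor Vps72 without replicate 5.

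Rnf149 shares 707 exon bases at its 3′ end with Gm15832, a non-coding transcript on the same strand. Gm15832 had 47, 53 and 50 reads in HFD and 6, 19 and 20 in HFD+allantoin livers, and fell from 4.85 ± 0.581 to 0.971 ± 0.474 CPM (SD, n = 3; log2 fold change −2.30, SE 0.44, edgeR adjusted p = 0.0083). It was the single called neighbour that moved against its partner. Reads in the shared bases, which make up 707 of the 2838 exon bases of Rnf149, could be counted for either gene or for neither. How the counting treated them is not given in the sources used here, nor whether the kit kept strand, so the level of both genes is uncertain to that extent. In HFD livers the 47, 53 and 50 reads of Gm15832 stood beside 50, 65 and 109 of Rnf149, and in HFD+allantoin livers its 6, 19 and 20 reads stood beside 771, 1111 and 708. The HFD level of Rnf149, and with it the 8.05-fold difference, is therefore open to how shared reads were counted.

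Of the other overlapping genes, those in the count table had almost no counted reads. Sla2, antisense to the 3′ end of Rab5if over 731 of its 2871 exon bases, had 1 to 6 reads per library, and 4921516A02Rik, antisense to Pdxk over 2104 of 5397 exon bases, had none. A lincRNA antisense to the end of Ston1 was not analysed here. Without strand, reads of a gene and its antisense partner cannot be told apart, and reads in shared bases could be counted for neither. The levels of Rab5if, Pdxk and Ston1 are uncertain to that extent, however few reads their partners had. Apart from these overlaps, no transcript of another gene matched one of the 8 at 95% identity over 200 bases or more. Gtf2a1l, the next gene beyond Ston1 and known from read-through transcripts with it, had no read in any library. Isoc1 stands alone, with Slc27a6 46.7 kb upstream and Adamts19 156 kb downstream, both at 0 to 4 reads. The tested neighbours that were not called were 5430405H02Rik and Ndrg3 (Rab5if), Cnot11 (Rnf149), Cstb (Pdxk), Nckipsd and Prkar2a (Ip6k2), Ppp1r21 (Ston1) and the 3 near Tmod4, with log2 fold changes from −0.94 to 0.67 and edgeR adjusted p from 0.12 to 0.97.

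**Figure D4:**
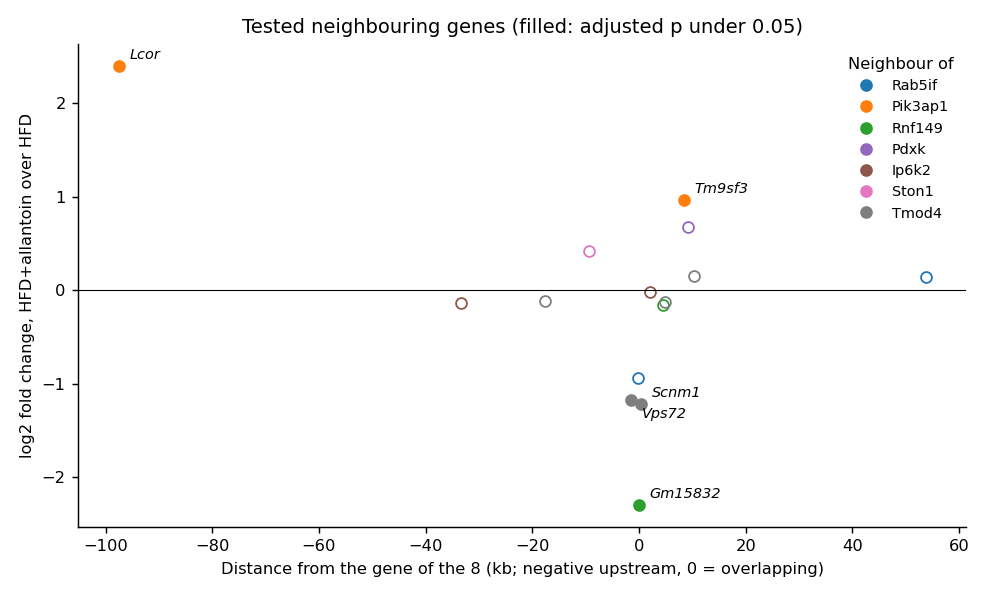
The 15 tested neighbours by distance from their gene of the 8 (kb, negative upstream, 0 overlapping, horizontal axis) and log2 fold change (HFD+allantoin over HFD, vertical axis), coloured by that gene and filled where the adjusted p was under 0.05. The 5 called genes are Lcor and Tm9sf3 (Pik3ap1), Scnm1 and Vps72 (Tmod4) and Gm15832 (Rnf149), and the other 10 lie between −0.94 and 0.67.

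The paralogs and partners of the 8 genes were then read to see whether the families moved with them. The lists, written from general knowledge, held 92 genes, of which 80 were tested, 16 called higher and 5 lower. That is 26.3% beside 24.3% of all tested genes, a share near the background, and their median log2 fold change was 0.12 beside −0.03 over all tested genes. Groups did not overlap for 38 genes (47.5%, beside 44.3%). The number called higher was 10 without HFD replicate 1 and 5, 5 and 7 without HFD+allantoin replicates 4, 5 and 6, and the number called lower was 1 without any of the last 3. With libraries scaled by size only it was 25 higher and 0 lower.

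Among 16 genes of phosphoinositide 3-kinase signalling around Pik3ap1, 4 rose and none fell, where 11.3% of all tested genes rose and 13.0% fell. Among them were the kinases Akt1 (log2 fold change 0.80), Akt2 (0.71) and Lyn (0.60), a Src-family kinase. Akt1 and Akt2 lost their calls without HFD+allantoin replicate 4 or 5, and Lyn without HFD replicate 1 or any one HFD+allantoin library. The kinase subunits Pik3ca, Pik3cb, Pik3cd and Pik3r1 and the B-cell partners Syk, Btk and Blnk were not called. In HFD livers the genes Btk and Blnk were under 2 CPM. Markers of macrophages and B cells, in which Pik3ap1 is known, were read beside it. Of 8 macrophage markers 3 rose, beside 11.3% of all tested genes. These were Adgre1 (log2 fold change 2.71), Cd5l (1.60) and Vsig4 (1.44). No macrophage marker was at 0, and their summed level was 110 to 262 CPM in HFD and 305 to 343 CPM in HFD+allantoin livers. Of 8 B-cell markers 4 were tested and none was called, none was at 0 in all libraries, and their sum was 14.1 to 32.0 against 10.9 to 17.5 CPM. The part of these cells in the Pik3ap1 values was not tested.

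Of 17 tested genes of inositol phosphate metabolism around Ip6k2, 3 were called higher and none lower, beside 11.3% and 13.0% of all tested genes. The 3 higher were Ipmk, the kinase that feeds the pathway (log2 fold change 0.65, edgeR adjusted p = 0.039), the phosphatase Minpp1 (0.57, adjusted p = 0.041) and the phosphatase Inpp5a (1.09, adjusted p = 0.015). Without HFD replicate 1 or 2 or any one HFD+allantoin library Ipmk and Minpp1 were not called, nor was Inpp5a without HFD+allantoin replicate 4. The closest paralog, Ip6k1, was at 53.0 ± 10.7 CPM in HFD and 35.7 ± 3.58 CPM in HFD+allantoin livers (SD, n = 3), a log2 fold change of −0.57 that was not called (edgeR adjusted p = 0.055), and Ip6k3 had no read. Ppip5k2, a kinase that acts on the product of Ip6k2, measured 35.5 ± 8.38 and 35.6 ± 2.60 CPM.

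None of the 3 tested genes of vitamin B6 handling was called, where 24.3% of all tested genes were. Pdxp, the phosphatase that reverses the step of Pdxk, had 0 to 6 reads and was not tested. Of the 2 isochorismatase-domain relatives of Isoc1, Isoc2b fell from 32.0 ± 6.45 to 20.1 ± 2.01 CPM (log2 fold change −0.67, edgeR adjusted p = 0.034), opposite to Isoc1, and Isoc2a was at 149 ± 24.9 and 135 ± 13.2 CPM, with no call. The call of Isoc2b was lost in 7 alternatives, among them leaving out HFD replicate 2 or 3 or any HFD+allantoin library.

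Of the 6 translocon partners of Rab5if, Nomo1 rose from 12.4 ± 1.74 to 32.1 ± 1.37 CPM (SD, n = 3; log2 fold change 1.37, edgeR adjusted p = 0.0029). Tmco1, with which Rab5if pairs, was at 77.3 ± 16.6 and 76.6 ± 8.93 CPM, a log2 fold change of −0.01 (SE 0.20), and Ccdc47, Wdr83os, Tmem147 and Ncln were not called. Of 12 genes for the Rab5 GTPases that gave Rab5if its name and for their effectors, 3 rose, Rab5b (28.0 ± 2.51 to 71.4 ± 3.47 CPM, log2 fold change 1.35, edgeR adjusted p = 0.0023), Rbsn (0.84) and Appl1 (0.70), and 2 fell, the rabaptin Rabep2 (−1.05) and the exchange factor Rabgef1 (−0.90). Nomo1 and Rab5b kept their calls without any single library, and the other 4 lost theirs without any one of the HFD+allantoin libraries, as did Rbsn, Appl1 and Rabep2 without HFD replicate 1, Rbsn without HFD replicate 2 and Appl1 without HFD replicate 3. Rab5a and Rab5c, the other GTPases of that name, were not called. For these lists too, the shares over all tested genes were 11.3% higher and 13.0% lower. Of 7 tested ubiquitin ligases of the family of Rnf149, Rnf130 rose from 32.2 ± 13.5 to 67.4 ± 2.03 CPM (log2 fold change 1.07, edgeR adjusted p = 0.031), and it was not called without any one of the HFD+allantoin libraries. Rnf13 and Rnf167 had log2 fold changes of 0.40 and −0.40 with no call, and Rnf133, Rnf148 and Znrf4 had no read.

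Around Ston1, the second stonin Ston2 rose from 4.08 ± 1.67 to 10.6 ± 2.74 CPM (SD, n = 3; log2 fold change 1.36, edgeR adjusted p = 0.024), as did the AP-2 subunit gene Ap2b1 (0.53), while the subunit gene Ap2s1 (−0.88) and the endocytic scaffold Eps15l1 (−0.76) fell, of 12 tested genes. The calls of Ap2b1 and Eps15l1 were lost without HFD replicate 1 or any one HFD+allantoin library, that of Ap2b1 also without HFD replicate 2, and that of Ston2 without HFD+allantoin replicate 5 or 6. Around Tmod4, 2 of 5 tested genes rose, Tmod3, the widely expressed tropomodulin (13.6 ± 3.12 to 23.5 ± 2.71 CPM, log2 fold change 0.78, edgeR adjusted p = 0.027), and Tpm3, a tropomyosin (19.9 ± 1.85 to 56.6 ± 2.34 CPM, log2 fold change 1.51, edgeR adjusted p = 0.0018). Tmod3 was not called without HFD replicate 1 or 2 or any one HFD+allantoin library. Tmod1 had at most 5 reads per library and Tmod2 at most 1. The counts called around Ston1 and Tmod4 stand beside 11.3% higher and 13.0% lower over all tested genes. Because Tmod4 is known from skeletal muscle, 10 skeletal muscle markers were read beside it. None was abundant enough to be tested, 5 of the 10, among them Ckm and Myh4, had no read in any library, and their summed level was 1.003 to 6.62 CPM in HFD and 0.472 to 0.887 CPM in HFD+allantoin livers. Of the markers with reads, Mylpf, a myosin light chain, had 12, 12 and 8 reads in HFD and 5, 10 and 4 in HFD+allantoin livers (mean 1.05 against 0.409 CPM). Its groups overlapped in reads but not in CPM, and 44.3% of all tested genes had no overlap in CPM. Casq1 had 12, 2 and 2 against 1, 5 and 3 reads, and Acta1 had 46 reads in HFD replicate 2 and 0 or 1 elsewhere. The part of muscle RNA in the Tmod4 values was not tested.

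**Figure D5:**
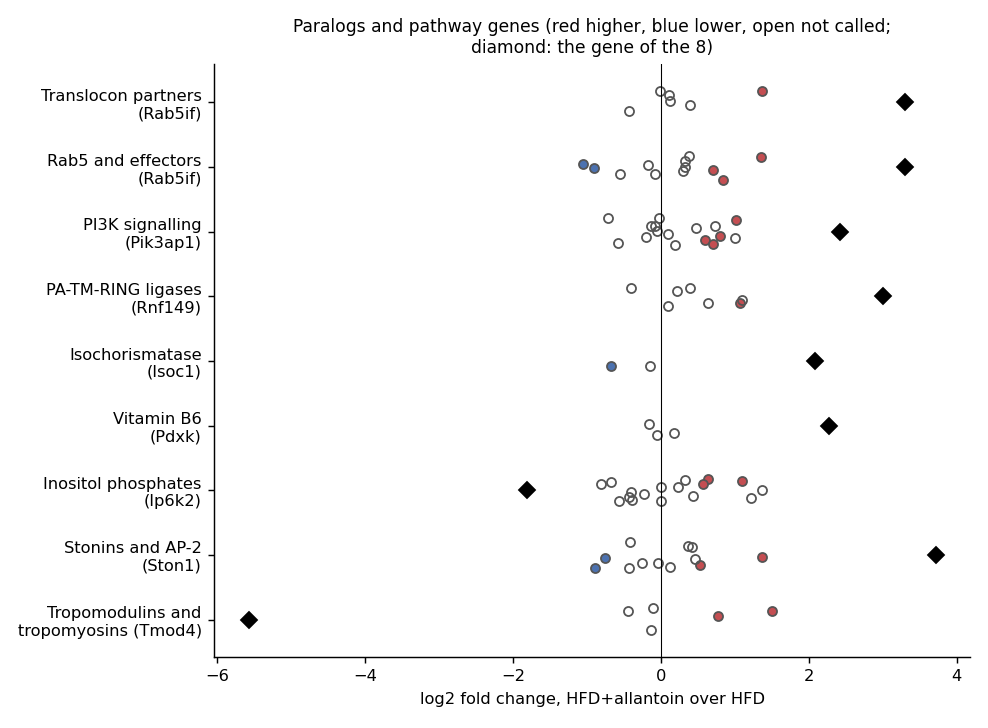
Log2 fold change (HFD+allantoin over HFD, horizontal axis) of the 80 tested paralogs and partners, by list, in red where called higher, in blue where called lower and open where not called, with the gene of the 8 as a black diamond. Each diamond lies outside the range of its list, a position that the choice of the 8 for large differences favours in advance. The called partners lie between −1.05 (Rabep2) and 1.51 (Tpm3).

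The genes whose log2 CPM ran most alike over the 6 libraries were named for each of the 8, among 11387 protein-coding genes compared, as Pearson's r and as a description only. Because the libraries fall into 2 groups, any gene that differs strongly with little spread scores high, and 212 (Ston1) to 549 (Isoc1) genes had r above 0.95. The closest were Tpm3 and Thtpa, a thiamine triphosphatase, for Rab5if, and Pja2, a ubiquitin ligase, and Flot2, a membrane scaffold protein, for Pik3ap1. For Rnf149 they were the ubiquitin ligase Rnf4 and the elongation factor subunit Aff4, and for Isoc1 the matrix protein gene Tgfbi and Crbn, a substrate receptor of a ubiquitin ligase. For Pdxk Wapl, a cohesin release factor, was named. For Ip6k2 they were Ndufc1 and Atp5o, both subunit genes of mitochondrial oxidative phosphorylation, for Ston1 the mitochondrial carrier Slc25a44 and the phosphatase Ptprj, and for Tmod4 the mitochondrial reductase Fdxr and the phosphatase inhibitor Ppp1r11. The values of r ran from 0.996 to 0.999.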

How the data were processed

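The authors deposited whole-number read counts per gene, not normalized, from filtered Illumina reads of liver RNA. The aligner, counter and strand setting are not given in the sources used here, and the submitters' processing notes name GRCm38 (mm10). Of 54961 entries, 429 without an Ensembl identifier (0.197% to 0.306% of counts) were left out. No sample column was left unused. Symbols, positions and exon lengths came from GENCODE M21 (GRCm38), which holds 54495 of the identifiers.

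Counts were tested with edgeR 4.0.16 in R 4.3.3 (TMM, filterByExpr, quasi-likelihood test, Benjamini-Hochberg over 12795 genes, called at an adjusted p under 0.05), with the group as the only term. The SE was derived from the F statistic, and log2 CPM used a prior count of 2. The script was tested on simulated data. Count ratios have exact binomial intervals (SciPy 1.17.1), which cover counting error only. Near-identical transcripts were sought with BLAST 2.17.0.

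The 8 genes, their lists and the alternatives were chosen with earlier results of these data known. The text names the 8, every tested neighbour, each called list gene and the closest paralogs, and the 2 most alike genes by Pearson's r at a mean of at least 1 CPM. A few genes that this rule selects are not reported here. Other list genes, markers and neighbours that were not tested are named after their values were seen. Alternatives were RLE, upper-quartile and library-size scaling, DESeq2 1.42.0, limma-voom (limma 3.58.1), a minimum of 10 counts in each library or none at all, the mitochondrial chromosome left out, a spline trend in transcript length and GC content (5 degrees of freedom) removed, and each library left out.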

Additional observations from a re-analysis of the deposited data

How the results depend on the processing

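No paired analysis was possible because the groups share no replicate number (1 to 3 against 4 to 6). None of the 8 genes changed direction under any alternative. Of their 118 log2 fold changes under alternatives, 104 lay within 1 SD between replicates of the main value and 14 moved further. The ranges were 3.25 to 3.73 for Rab5if, 2.31 to 2.84 for Pik3ap1, 2.86 to 3.41 for Rnf149, 1.94 to 2.49 for Isoc1, 2.17 to 2.69 for Pdxk, −1.88 to −1.39 for Ip6k2, 3.31 to 4.54 for Ston1 and −5.94 to −4.99 for Tmod4. The 26 called neighbours and list genes gave 388 values, of which 311 kept direction and call, 77 lost the call and 0 reversed.

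Library-size scaling, which moved the median log2 fold change of all genes by 0.41, gave 3162 genes higher and 674 lower, and 25 higher and 0 lower among paralogs and partners. With the length and GC trend removed, 8 of these were lower. With at least 10 counts in every library, 1 neighbour was higher, since fewer genes were tested. The fits that each left out 1 library gave 460 to 1773 genes higher and 564 to 2008 lower, 5 to 18 paralogs and partners higher and 1 to 7 lower, and 2 neighbours higher and 1 to 3 lower, with 1 lower without HFD+allantoin replicate 5. The cause was not tested. Depth limits Ston1 on HFD (10 reads in all) and Tmod4 with allantoin (2 reads in all).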

Other observations

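Markers of other cell types were read as summed CPM per library. Of all tested genes 11.3% were called higher and 13.0% lower. Of 8 hepatocyte markers 1 rose and 2 fell, and the sum was 88765 to 90566 CPM in HFD and 71070 to 99379 CPM in HFD+allantoin livers. Of 8 stellate cell markers 6 rose, beside 11.3% of all tested genes, among them Hgf, a growth factor for hepatocytes (1.81 to 12.7 CPM, log2 fold change 2.83, edgeR adjusted p = 0.0035), and Lrat, which esterifies retinol (6.86 to 24.8 CPM, log2 fold change 1.86, edgeR adjusted p = 0.0052), and the sum was 199 to 317 against 426 to 492 CPM. None of 8 endothelial markers was called (73.7 to 141 against 122 to 188 CPM), nor were the 6 blood markers (332 to 1336 against 878 to 1054 CPM). Of 3 tested cholangiocyte markers 1 fell (34.3 to 159 against 21.7 to 76.7 CPM). None of 3 tested markers was called for T and NK cells (5.02 to 12.0 against 3.24 to 5.57 CPM), neutrophils (8.30 to 11.6 against 2.43 to 6.95 CPM) or adipocytes (101 to 602 against 49.4 to 135 CPM). The part of these cells in the values of the 8 genes was not tested.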
